A study of Drosophila melanogaster with 4 samples.

Results

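Steady-state mRNA was compared between ovaries of Drosophila melanogaster lacking NSUN2 and ovaries of wild-type flies. Both groups had the background of W1118, a laboratory strain with a loss-of-function allele of the white eye-colour gene, and each was represented by 1 poly(A) mRNA library, so the comparison rests on 2 of the 4 libraries of the series. The other 2 are ribosome footprint libraries of the same genotypes, which were used only as a second readout. The knockout group is labelled by genotype only, and its allele, the age of the flies and the number of ovaries pooled are not stated there. With 1 library per group no difference has a replicate check, no p-value was computed, and every difference below is between these 2 libraries.

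NSUN2 is an RNA methyltransferase that places a methyl group on carbon 5 of cytosine, giving 5-methylcytosine (m5C). Its best known substrates are tRNAs, where the mark protects against cleavage, and it also methylates cytosines in messenger RNAs. In mRNA, m5C has been linked to export, stability and translation through proteins that bind the mark. The fly ovary consists of germ cells, including the nurse cells that supply the oocyte with maternal mRNA, and of the somatic follicle cells around them. In whole ovaries, fewer cells of a type and less RNA per cell cannot be told apart.

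The tables listed 2860 genes, each with a value scaled by the authors to library depth and to gene length, and with the highest m5C level listed for that gene. The m5C level is a fraction. Its median over the genes was 0.269 and its extremes were 0.1 and 0.991, so every listed gene carried a listed level of at least 0.1. A symbol was found for 18 of the 2860 FlyBase identifiers in the gene table used here. NSUN2 was not one of these 18. Its message may be among the identifiers without a symbol, but none was assigned to it, so the genotype labels were not checked on it. For the same reason the labelled tissue was not checked against ovary markers, and the gene lists drawn up for ovary and RNA-modification pathways were not analysed here. No sequence of the listed genes was used here.

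Whole reads per gene were recovered from the scaled values. The ratio of the knockout to the wild-type value of a gene is a ratio of whole reads multiplied by a constant shared by all genes, and that constant was 0.387 for mRNA. With it, a length and whole reads for both mRNA libraries were found for 2860 of 2860 genes. The recovered reads of the listed genes summed to 4753778 in the wild-type and 12152829 in the knockout mRNA library. By these reads the knockout library was 2.56 times as deep over these genes. The median gene had 964 recovered reads in wild type and 2521 in the knockout, and the lowest recovered counts were 11 and 14. Reads are lower limits where the reads of both libraries share a factor with the gene's length, which makes counting intervals too wide but not too narrow. The recovered length is a lower limit there too. An mRNA length shorter than the coding length, recovered in the same way from the footprint values in codons, marks such a gene. All intervals are 95% Clopper-Pearson intervals of the knockout share of a gene's reads and cover counting error only. Since the libraries had no stated molecular identifiers, reads are not independent molecules.

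Most listed messages stood at nearly the same level in both libraries. The values of all genes ran from 0.842 to 3386 in wild type and from 0.684 to 3564 in the knockout, with medians of 33.5 and 33.6. Of the 100 genes with the highest value in wild type, 90 were also among the 100 highest in the knockout, and Spearman's rho across the 2860 genes was 0.951. The message with the highest wild-type value stood at 3386 (wild type) and 3217 (knockout), and the next at 3110 and 3564. The difference is given throughout as log2 of the knockout value plus 1 over the wild-type value plus 1, a scale that understates differences of genes with low values. Its median over all genes was 0.0031, and the middle part of the genes lay between -0.19 at the 25th percentile and 0.19 at the 75th. On the log2 scale with 1 added, 2027 genes (70.9%) lay within 1.25-fold and 2557 (89.4%) within 1.5-fold.

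A small share of the genes lay further out, on both sides. Of the 2860 genes, 42 (1.47%) had a knockout value at least 2-fold above wild type and 36 (1.26%) one at least 2-fold below it, together 2.73% of the listed genes. These 78 genes held 1.30% of the summed value of all listed genes in wild type and 1.46% in the knockout. At 3-fold, 10 genes were higher and 11 lower. At 4-fold, 5 were higher and 5 lower, and at 8-fold 2 were higher and 1 lower. With a pseudocount of 5, the 2-fold counts were 22 and 21. Which side held more genes turned with the scaling, with 45 higher and 31 lower at equal upper quartiles and 39 higher and 42 lower at equal sums of the listed genes.

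**Figure D1:**
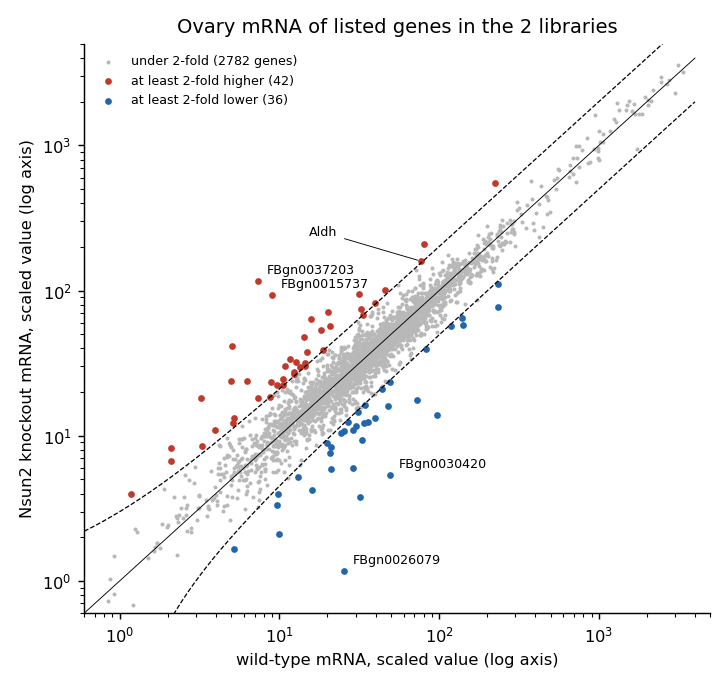
Scaled mRNA value of each of the 2860 listed genes in wild type (horizontal, log axis) and in the Nsun2 knockout (vertical, log axis), 1 library each; the solid line is equality and the dashed lines are 2-fold after adding 1. Most genes lie along the line, with 42 above the upper and 36 below the lower dashed line.

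The spread between the 2 libraries was wider than counting error. The SD of the log2 difference over genes was 0.41, while the counting standard error of a gene's log2 ratio had a median of 0.055 and a 95th percentile of 0.14. The counting interval lay above equality in 989 genes (34.6%) and below it in 1004 (35.1%), so it left out equality in 69.7% of the genes. What part of this spread comes from genotype and what part from differences between ovary samples, RNA preparations or libraries cannot be told apart with 1 library a group. Of the 78 genes past 2-fold, all had intervals without equality, and in 29 of the 42 higher and 26 of the 36 lower genes the whole interval lay beyond 2-fold. These interval counts hold for the values as deposited and were not computed under other scalings. Scaling to equal upper quartiles shifted the log2 ratios by 0.048, beside a median counting standard error of 0.055. A 95% interval also leaves out equality in some genes that do not differ.

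The genes at the extremes could not be named, because their identifiers have no symbol in the table used here. FBgn0037203 stood at 7.33 in the wild-type library and at 116 in the knockout library. It ranked 2685th of the 2860 genes by value in wild type and 281st in the knockout. It was 15.9-fold higher (95% counting interval 13.2 to 19.3), from 114 reads in wild type and 4667 in the knockout. However, its recovered mRNA length, 1372 nucleotides, was shorter than its recovered coding length of 604 codons. Its reads are thus lower limits and that interval is too wide. FBgn0015737 was next, with values of 8.95 and 92.8, and was 10.4-fold higher (9.11 to 11.9). Both messages lay under the 10th percentile of the wild-type values, 9.72, and stood among the more abundant listed messages in the knockout library. At the other end, FBgn0026079 stood at 25.2 in the wild-type library and at 1.17 in the knockout library, where 4 genes of the list had a lower value. It was 21.5-fold lower (17.1 to 27.3), from 699 reads in wild type and 84 in the knockout. FBgn0030420 had 49.2 and 5.33 and was 9.23-fold lower (8.28 to 10.3).

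The next 10 genes in each direction lay closer to the rest. Above wild type they had log2 differences from 1.51 to 2.81, and their values ran from 2.08 to 31.7 in wild type and from 8.27 to 95.3 in the knockout. Below wild type the log2 differences ran from -2.79 to -1.53, with values from 9.93 to 232 in wild type and from 2.10 to 76.8 in the knockout. The lowest recovered read count in these 20 genes was 14, in the knockout. That gene had values of 32.0 (wild type) and 3.77 (knockout), 8.48-fold lower with an interval from 4.58 to 16.7. Its recovered mRNA length, 127 nucleotides, was shorter than its recovered coding length of 90 codons. Its reads are thus lower limits, and the interval is too wide.

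The levels of these genes are a description, since the wild-type and knockout values that give them also chose the genes. Of the 42 higher genes, 32 had a wild-type value under 20, as had 804 of all 2860 listed genes. The median of the 42 was 12.0003 (wild type) and 31.1 (knockout). Of the 36 lower genes, 28 had a knockout value under 20, as had 790 of all 2860 listed genes. The median of the 36 was 31.6 (wild type) and 11.4 (knockout). Over all listed genes the medians were 33.5 and 33.6, so each set stood near the level of the listed genes in the library where it was high.

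The same genes were then set beside their ribosome footprints, the short fragments that ribosomes shield from nuclease, which come from separate libraries. In the 12 genes furthest above wild type in mRNA, the footprint log2 difference had a median of 0.23 and ran from -0.88 to 1.65. In footprints, 8 of these 12 (66.7%) were higher, against 45.1% of all listed genes, and 4 were lower. FBgn0037203 had footprint values of 18.3 (wild type) and 35.5 (knockout), 1.94-fold higher (1.55 to 2.45) against 15.9-fold in mRNA. FBgn0015737 went the other way, from 45.4 to 24.2. In the 12 genes furthest below, the median was -0.32 and the range from -4.13 to 2.14. Of these 12, 8 (66.7%) were lower in footprints, against 54.9% of all listed genes, and 4 were higher. FBgn0026079 was low in both readouts, with footprint values of 38.8 and 1.28, 30.4-fold lower (18.6 to 53.0). FBgn0030420 was low in both as well, with 13.2 and 2.22, 5.96-fold lower (3.81 to 9.60). The sixth lowest gene in mRNA, at 72.4 (wild type) and 17.7 (knockout), had footprint values of 39.3 and 177, so its readouts differed in opposite directions.

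**Figure D2:**
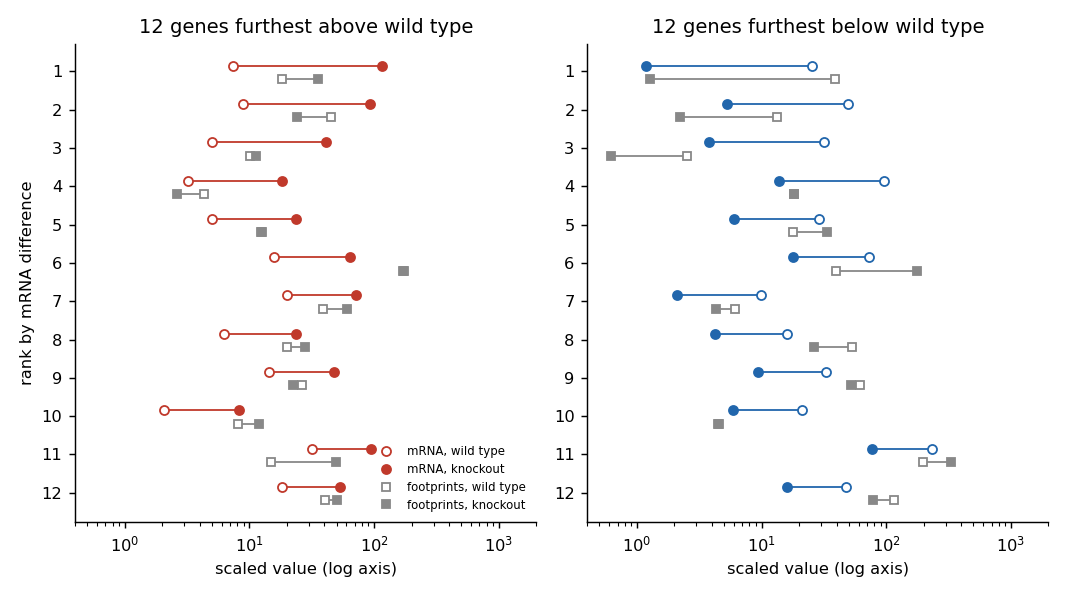
Scaled values (log axis) of the 12 genes furthest above wild type in mRNA (left) and the 12 furthest below (right), ranked by mRNA difference; circles are mRNA and squares footprints, open for wild type and filled for the knockout, 1 library each. The first-ranked gene on the right is low in the knockout in both readouts, while most of the other genes have footprint values closer together than their mRNA values.

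Over all genes past 2-fold in mRNA, footprints leaned the same way but mostly by less. Of the 42 higher genes, 24 (57.1%) were higher in knockout footprints by any amount, against 45.1% of all listed genes, and 4 (9.52%) were at least 2-fold higher, against 1.78%. None of the 42 was at least 2-fold lower in footprints, where 4.16% of all listed genes were. The lowest log2 footprint difference of the 42 was -0.9998, close to that limit. Their median log2 footprint difference was 0.09 beside 1.28 in mRNA. Of the 36 lower genes, 27 were lower in knockout footprints, where 54.9% of all listed genes were. At least 2-fold lower were 4 (11.1%) of the 36, against 4.16%, and 1 (2.78%) was at least 2-fold higher, against 1.78%. Their median log2 footprint difference was -0.34 beside -1.29 in mRNA, and over all listed genes it was -0.05. One side of this comparison was chosen for its size and the other was not. The recovered footprint reads, of 2855 listed genes, summed to 1278251 in wild type and 2408936 in the knockout, fewer than the recovered mRNA reads. These sums are lower limits.

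**Figure D3:**
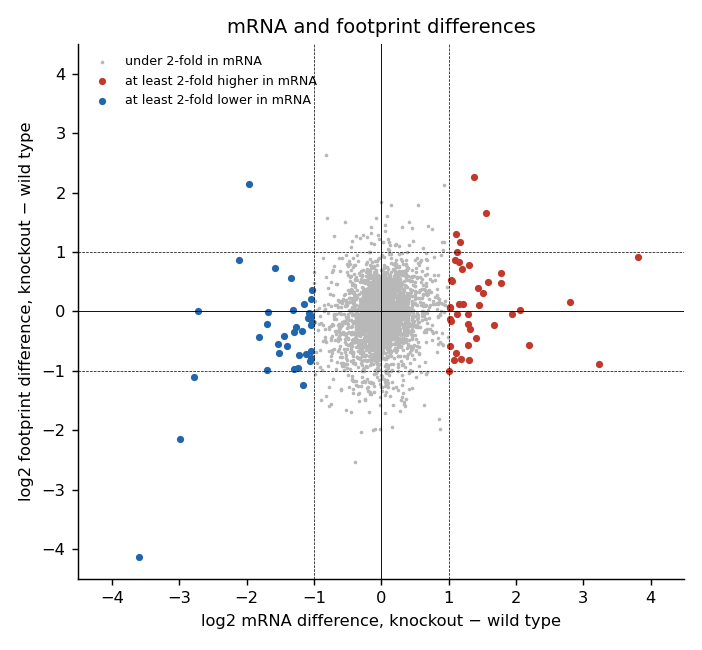
Log2 difference between knockout and wild type in mRNA (horizontal) and in footprints (vertical) for each listed gene, with 1 added to every value; dashed lines mark 2-fold. The 42 genes higher in mRNA spread around a median of 0.09 on the footprint axis and the 36 lower genes around -0.34, with a single gene at -3.59 in mRNA and -4.13 in footprints.

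The 18 genes with a symbol are reported because they could be named, not for their values. Their log2 mRNA differences ran from -0.36 to 1.04 with a median of 0.11, beside 0.0031 over all listed genes. Of the 18, 15 lay within 1.25-fold, where 70.9% of all listed genes lay. At least 2-fold higher was 1 of them, against 1.47% of all listed genes, and none was at least 2-fold lower, against 1.26%. The counting interval lay above equality in 7 and below it in 4, beside 34.6% and 35.1% of all listed genes, and held equality in the other 7. Those 7 include MED1, snama and CG42271, whose recovered reads are lower limits and whose intervals are too wide. With their full reads fewer than 7 may hold equality, which was not computed. Their m5C levels ran from 0.118 to 0.743.

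Metabolic genes included the single named gene past 2-fold. Aldh (FBgn0012036), a mitochondrial aldehyde dehydrogenase that oxidises acetaldehyde and other aldehydes, had an mRNA value of 77.0 (wild type) and 159 (knockout), and moved from rank 534 to rank 165 by value. It was 2.07-fold higher, and since its interval of 1.97 to 2.18 held 2, counting error does not place it beyond 2-fold. In footprints Aldh went from 364 to 526, 1.44-fold higher (1.37 to 1.53). Treh (FBgn0003748), the enzyme that splits the blood sugar trehalose, had 22.8 and 28.3, and was 1.24-fold higher (1.15 to 1.34). Mal-B2 (FBgn0032382), a maltase, had 10.3 and 11.3, and Mccc2 (FBgn0042083), which encodes part of a carboxylase in the breakdown of leucine, had 58.2 and 57.6. Both intervals held equality, from 0.954 to 1.27 for the ratio of Mal-B2 and from 0.929 to 1.05 for that of Mccc2. Coa7 (FBgn0039965), which takes part in cytochrome c oxidase assembly, was the most abundant of the 18, at 161 and 167 (ratio interval 0.984 to 1.09). AMPKalpha (FBgn0023169) encodes the kinase subunit of AMPK, which responds to low cellular energy. It stood at 37.0 in the wild-type and 37.1 in the knockout library, a ratio of 1.00 (0.939 to 1.08). Apart from Aldh and Treh, the intervals of the metabolic genes thus held equality for the values as deposited. That does not show equal levels, since the interval of Mal-B2 also held the 1.24-fold ratio of Treh.

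Genes of chromatin and transcription differed by small amounts in either direction. Mau2 (FBgn0038300), which helps load cohesin onto chromosomes, had mRNA values of 28.2 and 34.0 and was 1.20-fold higher (1.10 to 1.32). The gene pps (FBgn0082831), which encodes a partner of the splicing protein SNF, had 17.4 and 20.8 and was 1.19-fold higher (1.12 to 1.27). It carried the highest m5C level of the 18, 0.743. MED1 (FBgn0037109), part of the Mediator complex that links regulators to RNA polymerase II, had 31.4 and 35.5 with an interval that held equality (0.989 to 1.29). However, its recovered mRNA length, 827 nucleotides, was shorter than its recovered coding length of 1475 codons. Its reads are thus lower limits and that interval is too wide. That it held equality does not show that counting error covers the difference, and an interval from the full reads was not computed. Asx (FBgn0261823), a Polycomb-group gene, had 18.6 and 14.2 and was the lowest of the 18, 1.30-fold lower (1.22 to 1.39). Mau2 and Asx, on opposite sides of equality in mRNA, both had lower footprint values in the knockout, 26.6 and 21.4 for Mau2 and 7.09 and 5.199 for Asx. The footprint interval of Asx held equality. It rests on 21 and 31 recovered footprint reads, which can be lower limits, so that interval can be too wide.

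Genes of protein turnover, membrane traffic and adhesion made up most of the rest. Herc4 (FBgn0035207), a ubiquitin ligase, went from 43.9 in wild type to 36.6, 1.20-fold lower (1.11 to 1.30). GAPcenA (FBgn0035879), a regulator of Rab GTPases, had 20.03 and 16.2, 1.24-fold lower (1.15 to 1.33). Vps15 (FBgn0260935), a subunit of the lipid kinase complex that marks membranes for autophagy and endosomal traffic, had 8.93 and 7.85, 1.14-fold lower (1.013 to 1.28). These 3 and Asx were the named genes with intervals below equality. Meltrin (FBgn0051314), an ADAM-family metalloprotease, was the least abundant named gene, with 4.24 and 6.01, and was 1.42-fold higher (1.23 to 1.64). The RBBP6-like gene snama (FBgn0086129) had 47.7 and 50.7 (ratio interval 0.991 to 1.14). Its recovered mRNA length, 1967 nucleotides, was shorter than its recovered coding length of 1231 codons, so its reads are lower limits and that interval is too wide. Of the 3 genes without a given name, CG8516 (FBgn0037757) had 26.9 and 29.6, CG7091 (FBgn0038099) had 22.5 and 25.1, and CG42271 (FBgn0259166) had 17.1 and 16.002. The ratio interval of CG8516 began at 1.02, that of CG7091 at 1.00, and that of CG42271 held equality. CG42271 also had a recovered mRNA length, 878 nucleotides, shorter than its coding length of 640 codons, so its interval is too wide.

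**Figure D4:**
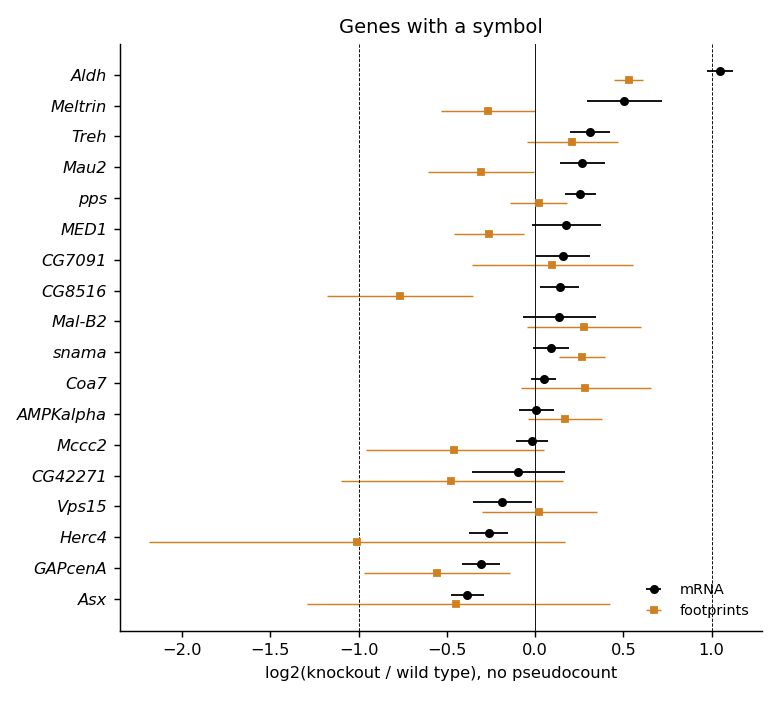
Log2 ratio of knockout to wild type, without a pseudocount, for the 18 genes with a symbol; circles are mRNA, squares footprints, bars 95% counting intervals, and dashed lines 2-fold. Aldh lies at the 2-fold line in mRNA and the other 17 genes lie within 1.5-fold of equality in mRNA, with wider intervals in footprints.

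The last comparison set the listed m5C level beside the mRNA difference. The median difference lay close to 0 at every m5C level. The 1027 genes with a level under 0.2 had a median log2 difference of 0.0054, and the 505 genes at 0.6 and above had 0.016. In between, it was -0.012 for 893 genes with levels from 0.2 up to 0.4 and 0.011 for 435 genes with levels from 0.4 up to 0.6. Scaling the libraries to equal upper quartiles moved all 4 medians above 0, to between 0.034 and 0.064. Across genes, rho between m5C level and the log2 difference was -0.010, and with the size of the difference regardless of direction it was -0.0098. These genes share 2 libraries, and the sources used here do not give the sample, sites and coverage behind the m5C level.

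The genes past 2-fold were spread unevenly over the m5C levels on the higher side. In the group under 0.2, 26 genes (2.53%) were at least 2-fold higher and 15 (1.46%) at least 2-fold lower. In the group at 0.6 and above, 3 (0.594%) were higher and 6 (1.19%) lower. The groups between had 8 and 5 genes higher, 0.896% and 1.15%, and 9 and 6 lower. The median m5C level of the 42 higher genes was 0.174 and that of the 36 lower genes 0.254, beside 0.269 over all listed genes. Other properties moved with the m5C level. The median recovered mRNA length was 2099 in the group under 0.2 and 2911 in the group at 0.6 and above, in a unit taken here as the nucleotide, and the geometric mean of both libraries' values had medians of 37.9 and 31.2. Among mRNAs with a recovered length under the median of 2413, 20 of 601 genes (3.33%) under 0.2 and 3 of 204 (1.47%) at 0.6 and above were at least 2-fold higher. Among those with longer recovered lengths the counts were 6 of 426 (1.41%) and 0 of 301. Recovered lengths are lower limits for some genes, so this split is not strictly one of message length. The part of length and level in the uneven spread was not tested further.

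Of the 505 genes with an m5C level of 0.6 and above, 9 (1.78%) were at least 2-fold apart, against 2.73% of all listed genes. The 3 in each direction with the highest level are given as examples. The higher gene with the highest m5C level, 0.985, had values of 14.4 (wild type) and 30.1 (knockout), 2.09-fold higher (1.83 to 2.39). The next, with a level of 0.723, was 5.68-fold higher (4.54 to 7.18), from 3.22 to 18.3, while its footprints went from 4.35 to 2.62. The third, at 0.612, was 2.21-fold higher (1.61 to 3.11), from 13.5 to 29.9, and its footprints went from 24.2 to 44.8. Among the lower genes, the highest level was 0.940, in a message with values of 232 and 111, 2.08-fold lower (2.02 to 2.15), and its footprints were lower too, at 231 and 129. The next, with a level of 0.908, had 25.5 and 10.8, and footprints of 15.1 and 5.84. The third, at 0.884, had 20.01 and 8.92 in mRNA, while its footprints stood at 5.50 and 5.35.

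**Figure D5:**
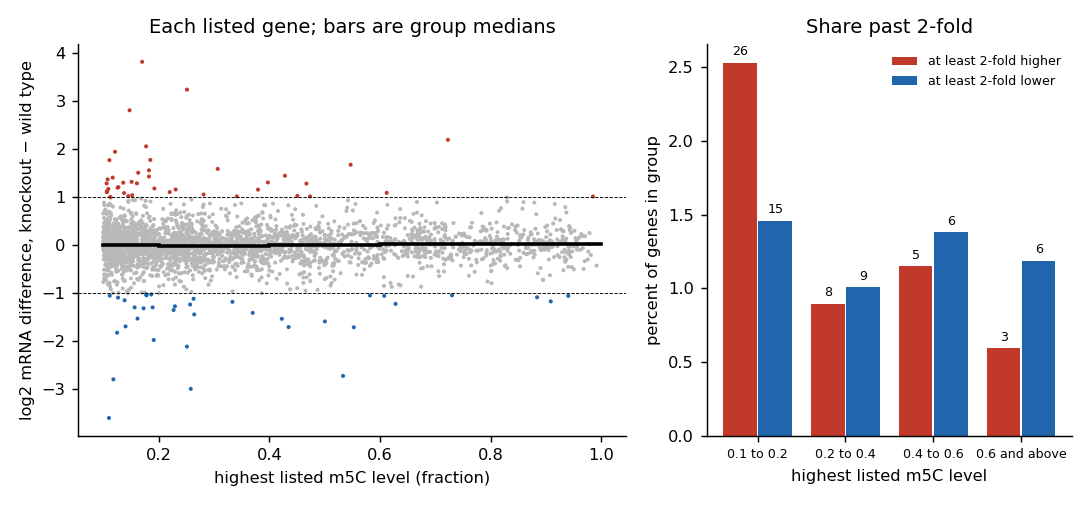
Left, log2 mRNA difference of each listed gene against its highest listed m5C level, with black bars at the medians of 4 groups; right, percent of each group's genes at least 2-fold higher or lower in the knockout, with the number of genes above each bar. The group medians lie between -0.012 and 0.016, and the share at least 2-fold higher is 2.53% under 0.2 and 0.594% at 0.6 and above.

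The share of genes past 2-fold was larger among less abundant messages and among those with shorter recovered lengths. Among the fifth of the genes with the lowest geometric mean value, up to 15.6, 5.07% were at least 2-fold apart in either direction, against 1.40% in the highest part, from 73.0 upward. The median wild-type reads were 355 and 2676 in these parts. In the part with the shortest recovered mRNAs, up to 1322, 5.24% were at least 2-fold apart, against 1.05% in the part with the longest, from 4585. The median wild-type reads there were 480 and 1474, and the counting standard error was at most 0.52 on the log2 scale for any gene. Recovered lengths and reads are lower limits for some genes. The part with the shortest recovered mRNAs thus also holds longer messages, such as MED1, with reduced reads. The medians of the log2 difference in these parts were 0.05, 0.0038, 0.03 and 0.0064.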

How the data were processed

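Poly(A) mRNA was measured in 1 wild-type and 1 knockout ovary library, with 1 footprint library of each genotype beside them. Tools named in the submitters' processing notes are cutadapt, TopHat2 and HTSeq, with the build dm3. Their versions and settings, and the annotation, are not given in the sources used. Expression was deposited as a signal per gene, scaled by the authors to library depth and gene length, and whether this is TPM or FPKM is not stated. The deposited m5C level is a fraction, identical in all 4 tables.

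Values were used as deposited, as log2(value + 1), over all 2860 genes, with 2-fold as the threshold and no p-value. Whole reads were recovered as ratios of whole numbers. For mRNA, 90 of 2860 ratios matched whole numbers up to 100, and 0 did with a slightly moved constant. The whole factor in the constant was set where both libraries' reads were even equally often, 31.5% in wild type and 33.5% in the knockout among 1913 mRNA ratios of whole numbers up to 3000. Footprint reads were found the same way for 2855 genes.

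Members and lists were chosen with earlier results of these data known. The rule for named genes took the 12 highest and 12 lowest by mRNA difference, the targeted gene, members of gene lists, the 3 genes past 2-fold with the highest m5C level in each direction and the 3 highest values. Since the gene table (Release 6) names 18 identifiers, 4 unnamed identifiers are printed, the other extremes are given by value, and the 18 named genes were added after the data were seen. Groups came from the sample titles. Python 3.11.15, numpy 2.4.6, pandas 2.3.3 and scipy 1.17.1 were used.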

Additional observations from a re-analysis of the deposited data

How the results depend on the processing

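With 1 library per group the spread between animals is unknown. No paired analysis was possible because the groups hold a single library each. With a pseudocount of 5, which shrinks low values, 22 genes were at least 2-fold higher and 21 lower, against 42 and 36. With a fold of at least 1.5 the counts were 154 and 149, and with a fold of at least 3 they were 10 and 11. Upper-quartile scaling raised the knockout values, so the median of all genes became 0.049 and those of the 4 m5C groups 0.052, 0.034, 0.057 and 0.064. Scaling to equal sums of the listed genes put the median of all genes at -0.013. Under the other settings run (a pseudocount of 0.1, a mean value of at least 5, median of ratios, quartiles of m5C level), counts stayed within 1.5 times and medians within their binomial interval over genes. The same held for the settings added after seeing the data. These were at least 100 recovered wild-type reads, intervals beyond 2-fold, and shorter or longer recovered mRNA lengths. For footprints they were at least 20 recovered reads or a pseudocount of 0.1. The gene lists and the neighbours of the targeted gene were not run, since they need symbols.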

Other observations

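The length of a message outside its coding part was estimated for 2450 genes as the length behind the mRNA values minus the coding length behind the footprint values; the other 410 genes, whose estimate was below 0 or incomplete, were left out. Both lengths are lower limits for some genes. A reduced coding length makes the estimate too long, and a reduced mRNA length makes it too short. In the fifth of the genes with the shortest such part, up to 284 nucleotides, the median log2 mRNA difference was 0.04, and in the following parts it was 0.04, 0.01, -0.04 and -0.07, the last from 1690 nucleotides upward. Knockout values thus stood slightly lower where this estimate was longer, by sizes that are small beside the SD of 0.41 over all genes. Because of these errors the order is not strictly one of non-coding length. Median wild-type reads were 747 in the first and 1529 in the last of these parts, and the part of depth in this order was not tested.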
